A study of Mus musculus with 8 samples.

Results

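The dual-specificity MAP kinase phosphatases (MKPs) were examined in primary murine articular chondrocytes given the proinflammatory cytokine IL-1β or vehicle. The members are the rows of the deposited gene count table named *Dusp1*, *Dusp2*, *Dusp4*, *Dusp5*, *Dusp6*, *Dusp7*, *Dusp8*, *Dusp9*, *Dusp10* and *Dusp16*, and all 10 were present among the 54658 gene symbols. RNA-Seq covered 4 samples treated with IL-1β at 1 ng/mL and 4 treated with vehicle, each for 24 h. The cells came from femoral head cartilage of wild-type mice aged 3 weeks, and no strain or sex is given for them in the sources used here. The methods name serum for murine cells only in the transfection steps, so that its presence in these cultures is not stated. The labels do not say whether the 4 samples of a group came from separate animals or cultures, so that the p-values measure the spread between these samples, which may be technical.

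MAP kinases (ERK, JNK and p38) are switched on by phosphorylation of a threonine and a tyrosine in their activation loop, and MKPs remove both phosphates. Because many MKP genes are themselves induced by MAP kinase signaling, the family is known as a negative feedback on inflammatory and growth factor signals. In cartilage, IL-1β acts through p38, JNK and ERK beside NF-κB, and these kinases are known to drive expression of matrix-degrading enzymes. Members are usually grouped into nuclear, inducible enzymes (*Dusp1*, *Dusp2*, *Dusp4* and *Dusp5*), cytoplasmic enzymes that prefer ERK (*Dusp6*, *Dusp7* and *Dusp9*), and enzymes that prefer JNK and p38 (*Dusp8*, *Dusp10* and *Dusp16*).

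After 24 h of IL-1β, *Dusp10* and *Dusp4* were higher and *Dusp8* was lower than with vehicle, each by a point estimate of less than 2-fold. The result for *Dusp4* is the weakest of these, since it rests on at most 55 reads per sample and its groups overlapped. Its call was lost without IL-1β replicate 3. *Dusp1*, by far the most abundant member, differed by a few percent. Of the 10 members, 9 passed the filter on low counts (a CPM above 1, that is, counts scaled to library size, in 4 or more samples), and *Dusp2* did not. Under edgeR's quasi-likelihood test with Benjamini-Hochberg adjustment over all 14404 genes tested, 2 members were higher and 1 was lower at an adjusted p under 0.05. These 3 of 9 (33.3%) compare with 40.2% of all genes tested, 20.4% higher and 19.8% lower. No member was past a 2-fold change with an adjusted p under 0.05, one of the thresholds in the study's methods, while 5.21% of all genes tested were, 2.86% higher and 2.35% lower. That count of 0 was the same with DESeq2, while 6 of the 9 members had an unadjusted p under 0.05 with edgeR, against 46.6% of all genes tested. In 3 of the 9 members (33.3%) all IL-1β samples lay on one side of all vehicle samples, as did 36.8% of all genes tested, 18.7% with IL-1β above and 18.2% with IL-1β below. These members were *Dusp10* (above), *Dusp5* and *Dusp8* (below).

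Total counts per sample were 10992355 to 17456063, and TMM normalization factors lay between 0.984 and 1.01. At these depths a floor of 3 counts per sample, below which a level is treated as not detectable, corresponds to 0.174 to 0.271 CPM. Of the chondrocyte markers fixed for this purpose, 10 of 10 were tested and 10 of 10 were lower after IL-1β, with a summed level of 4216 to 4630 CPM against 16214 to 16837 CPM with vehicle. The 10 leukocyte markers summed to 30.4 to 34.1 CPM after IL-1β, against 15.2 to 17.1 CPM with vehicle, most of it from *Cd68* and *Cd14*, while *Ptprc*, *Adgre1* and *Itgam* had mean levels of at most 0.149 CPM and *Cd3e* was at 0 in all samples. The 5 endothelial and 5 muscle markers each summed to at most 1.65 CPM in any sample, and the 5 erythroid markers to at most 1.81 CPM. In such bulk samples, fewer cells of a type and less RNA per cell cannot be told apart, and the part of these marker changes in the results on the phosphatases was not tested.

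**Figure D1:**
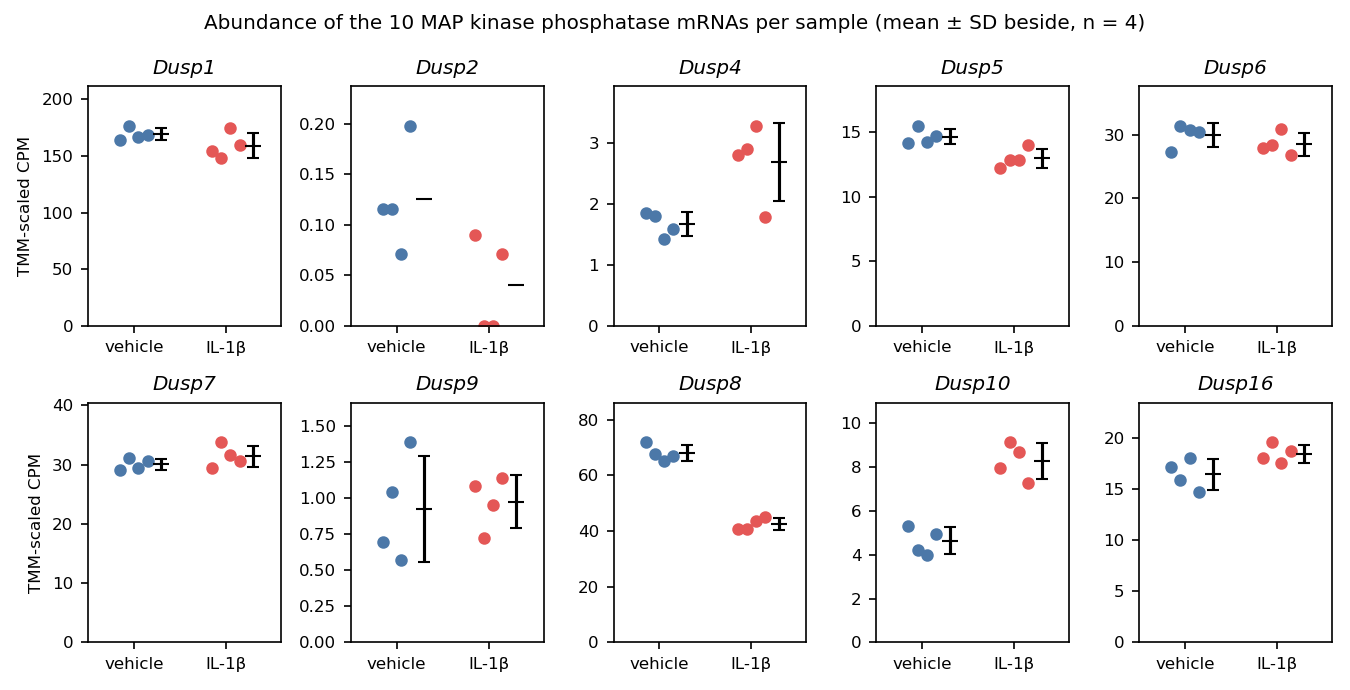
Each panel plots 1 gene, with the TMM-scaled CPM of the 4 vehicle samples (blue) and the 4 IL-1β samples (red) and the mean ± SD beside them in black (mean alone for *Dusp2*). The groups are apart for *Dusp8*, *Dusp10* and, by a narrow gap, *Dusp5*, and they overlap for the other members.

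MKP genes are known to be controlled through promoter and 3′ UTR motifs, and these differ between members. RefSeq promoter windows (GRCm38, from 250 bases before to 50 bases after the start site) were read for 8 members (all but *Dusp4* and *Dusp9*). The cAMP response element (CRE, TGACGTCA), bound by CREB and ATF proteins, occurred in the windows of *Dusp1* and *Dusp8*. Across all 32851 windows 1.79% hold it, and 2.99% of the 12732 windows of genes tested here. *Dusp1* had 1 such element and *Dusp8* had 2, printed here in 30-base stretches on the gene's strand with the element in capitals, because these are the most abundant member and the member that fell.
*Dusp1*, chr17:26508597-26508626, minus strand: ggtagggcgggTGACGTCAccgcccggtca
*Dusp8*, chr7:142095373-142095402, minus strand: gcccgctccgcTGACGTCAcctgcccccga
*Dusp8*, chr7:142095329-142095358, minus strand: ttggctgcaggTGACGTCAggggctttttc
The *Dusp1* element spans bases -143 to -136 from the start, and the *Dusp8* elements span -107 to -100 and -63 to -56. The RefSeq starts of *Dusp1*, *Dusp8* and *Dusp10* lie 53656, 559 and 21079 bases inside the genes as GENCODE vM21 draws them, so that starts farther upstream are not covered. The half-site TGACG, searched on both strands and contained in the full element, was found in 5 of the 8 windows, against 31.0% of the windows of genes tested.

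Of the other motifs, the CArG box, bound by serum response factor, occurred in the window of *Dusp5* alone among the 8, as an adjacent pair, and in 1.32% of the windows of genes tested. Its pair is printed because *Dusp5* is known as a serum-responsive gene, with each box in capitals in turn.
*Dusp5*, chr19:53529053-53529082, plus strand: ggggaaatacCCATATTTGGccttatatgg
*Dusp5*, chr19:53529063-53529092, plus strand: ccatatttggCCTTATATGGgcactcacgt
A loose NF-κB motif, searched on both strands, was present in the windows of *Dusp1*, *Dusp5*, *Dusp6* and *Dusp7*, and in 26.7% of the windows of genes tested. In *Dusp5* it shares 1 base with the first CArG box. The AP-1 motif TGANTCA and the ETS motif CCGGAAG were in none of the 8 windows, against 5.05% and 17.3% of the windows of genes tested, which says only that these letters are not in the windows. The window of *Dusp10*, the member with the largest rise, held none of the motifs searched.

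In 3′ UTRs, the AU-rich nonamer TTATTTATT marks transcripts that are known to be short-lived and to be stabilized by p38 signaling. It was found in *Dusp1* (2 sites) and *Dusp8* (1 site), and in 8.33% of the 11958 genes tested that have an annotated 3′ UTR in GENCODE vM21. The sites are printed as 30 bases each on the gene's strand, with the nonamer in capitals, since *Dusp1* is the best-known AU-rich transcript of the family.
*Dusp1*, nonamer at chr17:26506169-26506177: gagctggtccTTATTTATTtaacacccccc
*Dusp1*, nonamer at chr17:26505880-26505888: gtttttacctTTATTTATTtttgtgtaggt
*Dusp8*, nonamer at chr7:142081725-142081733: tttcgattttTTATTTATTtaagctagtga
The shorter AU-rich pentamer ATTTA, which the nonamer contains, occurred in 9 of the 10 members and in 70.4% of genes tested. *Dusp2* and *Dusp1* had the densest pentamers, at 6.88 and 5.80 per 1000 bases of 3′ UTR, while the median gene tested had 1.32 and *Dusp7* had none.

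The study concerns miR-146a-5p, a microRNA whose seed (bases 2 to 8, in capitals) pairs with AGTTCTC. This match was present once in the 3′ UTRs of *Dusp8* and *Dusp16*, and in 12.5% of genes tested.
miR-146a-5p: uGAGAACUgaauuccauggguu
*Dusp8*, match at chr7:142080234-142080240: agtcctgtcctAGTTCTCttgatcccaccc
*Dusp16*, match at chr6:134716074-134716080: aaaatgtctaaAGTTCTCaaagcttcacag
The first of these genes was lower after IL-1β and the second was not past the test, as described with their values. A match of letters is a description and not a shown site.

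Among the nuclear, inducible members, *Dusp1* (MKP-1) encodes a phosphatase that prefers p38 and JNK and is known as a brake on cytokine production. The gene spans GRCm38 chr17:26505590-26562128 (minus strand) in GENCODE vM21, whose exon length for it differs from the deposited one. Its level was 154, 148, 175 and 159 CPM in IL-1β replicates 1 to 4, and 164, 176, 167 and 168 CPM in vehicle replicates 1 to 4. The groups overlapped, since IL-1β replicate 3 lay above 3 of the vehicle samples. Means were 159 ± 11.3 CPM after IL-1β and 169 ± 5.20 CPM with vehicle (SD, n = 4), a log2 fold change of -0.08, with SE 0.0382 and an edgeR adjusted p = 0.0828. The 95% interval of the change ran from -10.7% to -0.386%, so that a 2-fold change in either direction lay far outside it. Without IL-1β replicate 3, the log2 fold change of *Dusp1* was -0.13 and passed the test (adjusted p = 0.0034 from edgeR), and over all alternatives it lay between -0.13 and -0.05.

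*Dusp4* (MKP-2; chr8:34807297-34819894, plus strand), a nuclear phosphatase of ERK and JNK, was a low-abundance member. It had 2.80, 2.89, 3.28 and 1.78 CPM in the IL-1β samples and 1.85, 1.80, 1.43 and 1.58 CPM in the vehicle samples, in replicate order. IL-1β replicates 1 to 3 lay above every vehicle sample, and IL-1β replicate 4 lay within the vehicle range. The means were 2.69 ± 0.640 and 1.67 ± 0.195 CPM (SD, n = 4). The log2 fold change was 0.69, with SE 0.205 and an edgeR adjusted p = 0.00805, or a 1.61-fold higher level. Its 95% interval ran from 0.27 to 1.11, which includes the 2-fold threshold. An exact two-sided permutation test over samples gave p = 0.0857. These values rest on 25 to 55 reads with IL-1β and 20 to 32 reads with vehicle. The call was lost without IL-1β replicate 3 (log2 fold change 0.56, adjusted p = 0.0554 from edgeR).

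*Dusp5*, which dephosphorylates ERK in the nucleus and holds it there, had 12.2 to 14.0 CPM in the IL-1β samples and 14.2 to 15.5 CPM in the vehicle samples. Every IL-1β sample lay below every vehicle sample (exact permutation test over samples, two-sided, p = 0.0286, the smallest that 4 against 4 allow), but the gap was narrow. The log2 fold change of -0.17 (standard error 0.0794) had an adjusted p of 0.0851 from edgeR. Its 95% interval corresponded to a change from -20.8% to -0.715%. An annotated gene on the opposite strand covers 22.1% of the exon bases of *Dusp5*, and the strand setting of the counting is not given in the sources used here.

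*Dusp2* (PAC-1), known from activated leukocytes, was at or under the floor of 3 counts in every sample. Its counts were 1, 0, 0 and 1 with IL-1β and 2, 2, 1 and 3 with vehicle, so that no fold change is given. Leukocyte markers are given above, with *Ptprc*, the pan-leukocyte antigen, at a mean of 0.149 CPM after IL-1β against 0.107 CPM with vehicle.

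The cytoplasmic phosphatases of ERK did not pass the test, and 2 of them were measured closely. *Dusp6* (MKP-3), the feedback phosphatase of FGF signaling, had 27.8, 28.4, 30.9 and 26.8 CPM in IL-1β replicates 1 to 4 and 27.3, 31.4, 30.7 and 30.5 CPM in vehicle replicates 1 to 4. The groups overlapped widely, with IL-1β replicate 3 above 3 of the vehicle samples. Its log2 fold change was -0.07, with SE 0.0584 and an edgeR adjusted p = 0.401, with a 95% interval from -12.1% to 3.74%. *Dusp7*, its closest relative in function, had 29.5 to 33.7 CPM after IL-1β and 29.1 to 31.1 CPM with vehicle, which overlapped. Its log2 fold change of 0.07 had an adjusted p of 0.362 from edgeR and an interval from -3.0% to 12.9%.

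*Dusp9* (MKP-4), an X-linked member best known from placenta, was near the filter, with 0.724 to 1.14 CPM in the IL-1β samples and 0.572 to 1.38 CPM in the vehicle samples. These levels rest on 8 to 21 reads per sample, and the vehicle samples spanned the whole range of the IL-1β samples. The log2 fold change of 0.07, with SE 0.299 and an edgeR adjusted p = 0.892 had a 95% interval from -31.6% to 60.1%. At this depth the counts are compatible with any change within that interval.

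The phosphatases of JNK and p38 held the clearest fall and the clearest rise of the family. *Dusp8* (GRCm38 chr7:142079490-142095843, minus strand), which acts on JNK and p38, had 40.9, 40.8, 43.6 and 44.9 CPM in IL-1β replicates 1 to 4, against 71.8, 67.8, 65.3 and 67.0 CPM in vehicle replicates 1 to 4. The groups were far apart, with a gap wider than the range of either group. It fell from 68.0 ± 2.78 to 42.5 ± 2.03 CPM (SD, n = 4), a log2 fold change of -0.67, with SE 0.0443 and an edgeR adjusted p = 2.68e-13. This was a change of -37.4%, with a 95% interval from -41.2% to -33.3%. Over all alternatives the log2 fold change stayed between -0.70 and -0.65. Its promoter window holds the pair of CREs and its 3′ UTR the nonamer and the miR-146a-5p seed match printed above. *Dusp1* also has a CRE and nonamers and *Dusp16* also has the seed match, and neither was called lower in the main fit. A link between these motifs and the level of *Dusp8* was not tested.

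*Dusp10* (MKP-5; chr1:184013302-184075636, plus strand), a phosphatase of JNK and p38 known to limit inflammatory cytokine production, moved in the opposite direction. Its IL-1β samples had 7.96, 9.12, 8.70 and 7.26 CPM and its vehicle samples 5.32, 4.23, 4.01 and 4.95 CPM, in replicate order. All IL-1β samples lay above all vehicle samples. The means were 8.26 ± 0.822 and 4.63 ± 0.614 CPM (SD, n = 4), and the log2 fold change was 0.83, with SE 0.121 and an edgeR adjusted p = 1.87e-06. This was a 1.78-fold rise, and the 95% interval of the log2 fold change ran from 0.58 to 1.08, which includes the 2-fold threshold. Leaving out single samples gave *Dusp10* values between 0.77 and 0.91.

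*Dusp16* (MKP-7), which prefers JNK, had 17.6 to 19.6 CPM in the IL-1β samples and 14.7 to 18.1 CPM in the vehicle samples, which overlapped. Its log2 fold change of 0.17 (standard error 0.0752) had an adjusted p of 0.0781 from edgeR, with a 95% interval of 0.01 to 0.32 on the log2 scale. Without vehicle replicate 3 it was 0.21 and passed the test (adjusted p = 0.0409 from edgeR).

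**Figure D2:**
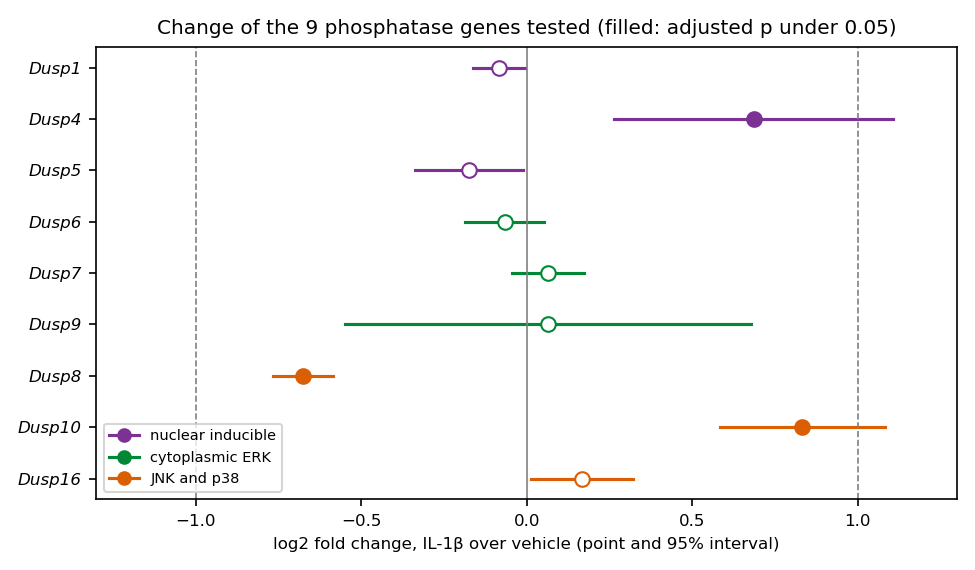
The x axis is the log2 fold change of IL-1β over vehicle, with the point estimate and its 95% interval for the 9 members tested, colored by class, and filled points have an adjusted p under 0.05 from edgeR. *Dusp10* (0.83) and *Dusp4* (0.69) lie to the right, *Dusp8* (-0.67) lies to the left, and no point passes the dashed lines at 1 and -1.

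To compare levels between genes, counts were divided by the deposited gene length and scaled to the same total in each sample (TPM). On this per-length scale, *Dusp1* made up most of the family in both groups, at 175 ± 6.86 TPM with vehicle and 159 ± 8.52 TPM with IL-1β (SD, n = 4). With vehicle it was followed by *Dusp8* at 39.0 ± 2.28 TPM, *Dusp6* at 26.7 ± 1.51 TPM, *Dusp7* at 24.97 ± 0.713 TPM and *Dusp5* at 16.5 ± 0.734 TPM. Lower levels were found for *Dusp16* (5.91 ± 0.666 TPM), *Dusp10* (4.24 ± 0.568 TPM), *Dusp4* (1.70 ± 0.222 TPM), *Dusp9* (0.940 ± 0.348 TPM) and *Dusp2* (0.173 ± 0.0678 TPM). The samples of *Dusp6* and *Dusp7* overlapped, and all other neighbors in this order were separate in their 4 samples.

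With IL-1β the order changed in its middle. *Dusp8* was at 23.6 ± 0.595 TPM, behind *Dusp7* (25.2 ± 1.49 TPM) and *Dusp6* (24.5 ± 1.42 TPM), and the samples of neighbors among these 3 overlapped. *Dusp10* reached 7.33 ± 0.782 TPM, beside *Dusp16* at 6.41 ± 0.386 TPM, and these overlapped too. *Dusp5*, *Dusp4*, *Dusp9* and *Dusp2* kept their places, at 14.2, 2.65, 0.967 and 0.0550 TPM. The places within the pairs of overlapping genes depended on the length used. With the length of the longest coding transcript, an alternative chosen after seeing the data, *Dusp16* was at 9.80 and *Dusp10* at 7.99 on the per-length scale with IL-1β, and *Dusp6* came before *Dusp7*. The annotation vM21 gives *Dusp1* 3311 exon bases where the deposited length is 2697, and with the former its level was 142 with vehicle and still the highest.

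The makeup of the family was then given as each member's percent of the summed TPM. *Dusp1* held 59.3 ± 0.471% with vehicle and 60.2 ± 1.49% with IL-1β (SD, n = 4), and the samples overlapped. *Dusp8* held 14.2, 12.7, 12.9 and 13.0% in vehicle replicates 1 to 4 and 8.87, 8.87, 8.53 and 9.45% in IL-1β replicates 1 to 4. *Dusp10* went from 1.44 ± 0.208% to 2.78 ± 0.300% and *Dusp4* from 0.575 ± 0.0648% to 1.00 ± 0.226%. The share of *Dusp7* was higher too, at 9.57 ± 0.729% against 8.47 ± 0.125%, although its own level did not pass the test. The per-length level of *Dusp8* was 9.27 ± 0.954 times that of *Dusp10* with vehicle and 3.25 ± 0.447 times with IL-1β.

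By class, the phosphatases of JNK and p38 together had 46.2 to 53.4 TPM in the vehicle samples and 37.0 to 37.9 TPM in the IL-1β samples, which did not overlap. Within this class only *Dusp8* had a lower mean with IL-1β (23.6 against 39.0 TPM). The means of *Dusp10* (7.33 against 4.24 TPM) and *Dusp16* (6.41 against 5.91 TPM) were higher. The nuclear members together had 185 to 203 and 167 to 187 TPM, and the cytoplasmic members 50.3 to 55.2 and 47.8 to 52.9 TPM, and in both classes the groups overlapped. The sum of all 10 members was 295 ± 10.1 TPM with vehicle and 264 ± 8.53 TPM with IL-1β, a difference of 30.7 TPM. *Dusp1* accounted for 15.6 TPM of it and *Dusp8* for 15.4 TPM, while *Dusp10* added 3.09 TPM and *Dusp4* 0.955 TPM. These sums are descriptions without a test, and *Dusp1* itself did not pass the test and its samples overlapped. The split also depends on the scale, since on TMM-scaled CPM the mean of *Dusp1* went from 169 to 159 and that of *Dusp8* from 68.0 to 42.5.

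**Figure D3:**
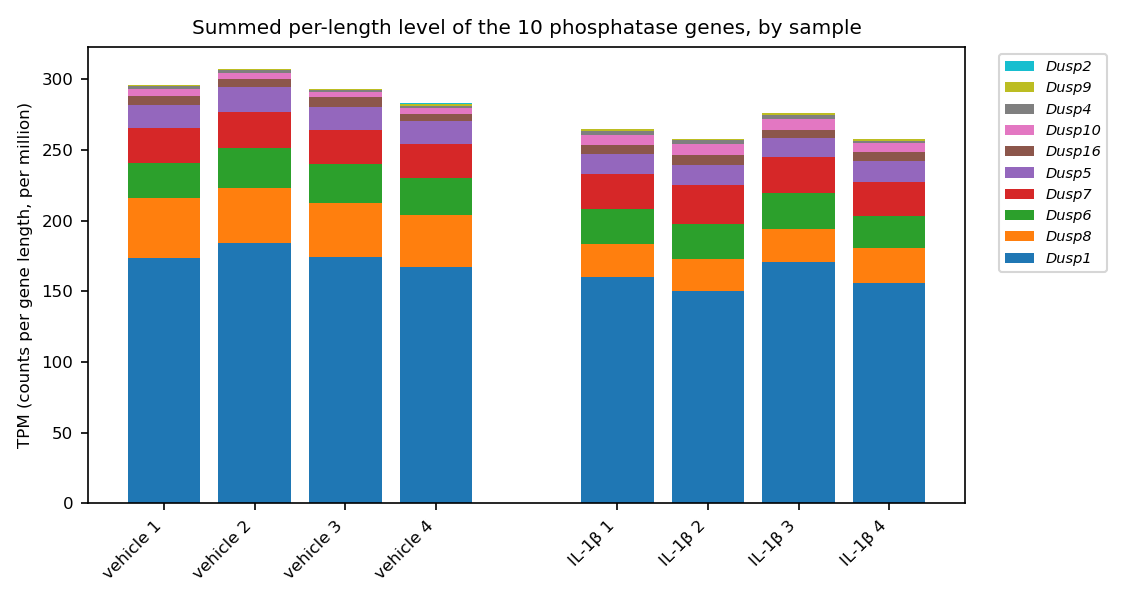
Stacked bars give the TPM of each member in each of the 8 samples, so that the bar height is the summed per-length level of the family. The bars reach 283 to 307 TPM with vehicle and 258 to 276 TPM with IL-1β, and the *Dusp8* segment goes from 39.0 to 23.6 TPM on average.

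The genes of the pathway on which MKPs act were taken from fixed lists and are given by counts, beside the 40.2% of all genes tested with an adjusted p under 0.05 and a median log2 fold change of -0.0012 over all genes. Of 10 MAP kinase genes, the substrates of the phosphatases, 8 were tested, of which 5 were higher and 0 were lower after IL-1β (median log2 fold change 0.26). *Mapk13* (p38δ) had 20.6 to 25.6 CPM after IL-1β against 5.29 to 6.33 CPM with vehicle, with a log2 fold change of 2.02, the single change past 2-fold in this list. *Mapk14* (p38α), the main p38 isoform, had 59.1 to 61.5 against 46.7 to 51.0 CPM (log2 fold change 0.32, adjusted p = 1.86e-07 from edgeR). *Mapk12* and *Mapk7* had log2 fold changes of 0.56 and 0.36, and that of *Mapk12* rests on 17 to 36 reads per sample. *Mapk8* and *Mapk9*, which encode JNK kinases and are named after their values were seen, had log2 fold changes of -0.08 and 0.03 (adjusted p = 0.266 and 0.576 from edgeR).

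Of 7 MAP kinase kinase genes, whose products phosphorylate the MAP kinases, 4 were higher and 0 were lower, with a median log2 fold change of 0.11. *Map2k1* (MEK1) and *Map2k2* (MEK2), the activators of ERK, had log2 fold changes of 0.41 and 0.24, *Map2k5* had 0.14, and *Map2k3*, an activator of p38, had 0.11. Of 10 genes for kinases activated by MAP kinases, 4 were higher and 2 were lower (median 0.11). The largest changes in this list were those of *Rps6ka4* (0.54), *Rps6ka1* (0.53), *Mknk2* (0.44) and *Rps6ka3* (0.27), all higher after IL-1β.

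Sprouty and Spred proteins restrain the pathway upstream of ERK, as *Dusp6* does downstream. Of 5 such genes tested, 3 were higher and 1 was lower. *Spred2* had 53.9 to 63.2 CPM after IL-1β against 32.8 to 37.8 CPM with vehicle (log2 fold change 0.74, adjusted p = 1.58e-12 from edgeR). *Spred3* and *Spred1* had log2 fold changes of 0.90 and 0.23, while *Spry4* had -0.54.

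Genes known to be transcribed in response to ERK, mostly immediate early and ETS genes, moved in both directions. Of 18 tested, 6 were higher and 8 were lower, with a median log2 fold change of -0.06, and 3 higher and 1 lower gene were past 2-fold. *Ier3*, an immediate early gene also driven by NF-κB, had 182 to 191 CPM after IL-1β against 45.7 to 52.0 CPM with vehicle (log2 fold change 1.95). *Phlda1* and *Etv1* had log2 fold changes of 1.43 and 1.02. *Fos*, a classical immediate early gene, had 9.85 to 11.3 CPM after IL-1β against 24.1 to 25.7 CPM with vehicle (log2 fold change -1.19, adjusted p = 3.52e-14 from edgeR).

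**Figure D4:**
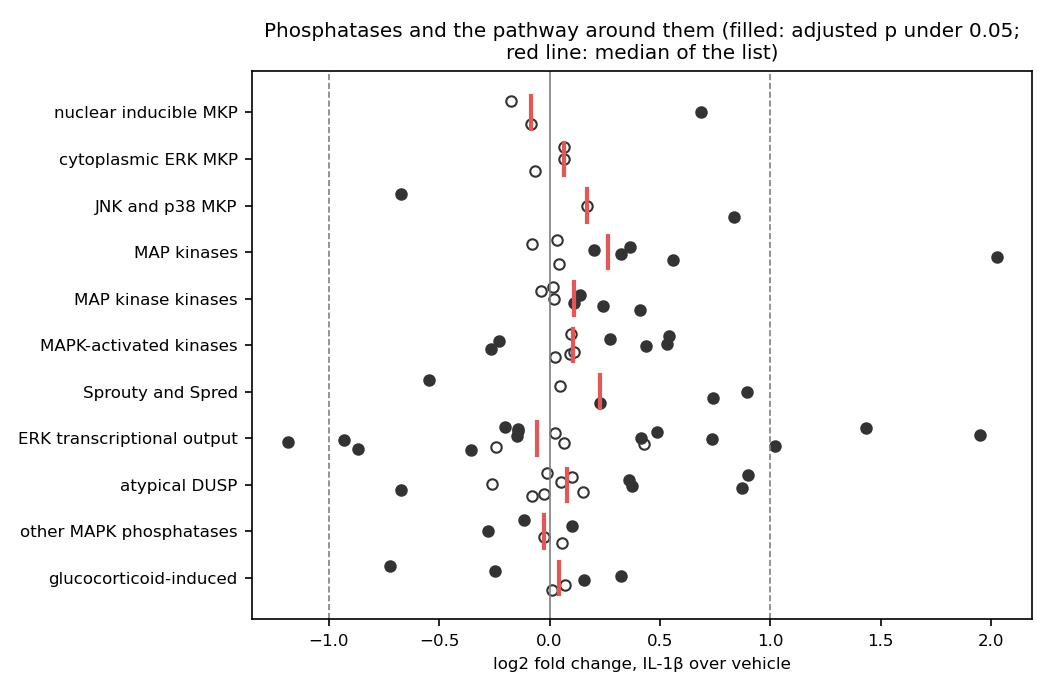
Each point is a tested gene at its log2 fold change of IL-1β over vehicle (x axis), arranged by list, filled where the adjusted p from edgeR was under 0.05, with the median of each list in red. The phosphatases lie between -0.67 and 0.83, and the points past 1 or -1 belong to the MAP kinases and to the transcriptional output of ERK.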

How the data were processed

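Per the methods and the labels, the authors trimmed reads with cutadapt, aligned them to mm10 (GENCODE vM20) with STAR and counted them with featureCounts. The deposited values are whole-number counts per gene symbol, beside a gene length in bases (unit: other) deposited by the authors. Whether they precede or follow the RUVseq correction is not stated. All 8 count columns were used. Samples were grouped by treatment label. Counts were normalized by TMM and tested in R 4.3.3 with edgeR 4.0.16 (limma 3.58.1) by its quasi-likelihood test, over genes that passed a CPM of 1 in 4 or more samples. CPM values are TMM-scaled. The 95% intervals use the standard error and total degrees of freedom of this fit. The total is the residual degrees of freedom plus a prior that edgeR estimates from all genes (20.9). The fit was also run on simulated data, and no outcome of that run is given or relied on here. The floor of 3 counts covers counting error only. Motifs were searched with Python 3.11.15 in RefSeq promoters (GRCm38) and in GENCODE vM21 3′ UTRs, taking for each gene its longest coding transcript. Figures used matplotlib 3.10.9.

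The members and all gene lists were chosen with earlier results of these data known. The pathway genes named are at most 4 per list, those with the largest change among genes with an adjusted p under 0.05. As exceptions, *Mapk8* and *Mapk9* were added after their values were seen. Alternatives were DESeq2 1.42.0, other normalizations and filters, the replicate number as a block, 1 RUVs factor, glmTreat, other gene lengths, and each sample left out.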

Additional observations from a re-analysis of the deposited data

How the results depend on the processing

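With DESeq2, DESeq2's size factors, no filter on low counts, a CPM above 1 in all 8 samples or 1 RUVs factor, the same 3 members had an adjusted p under 0.05 (*Dusp4*, *Dusp8* and *Dusp10*), and 0 were past 2-fold in either direction. In those fits 34.3%, 40.2%, 17.9%, 42% and 42.5% of all genes tested, in that order, had an adjusted p under 0.05, and 36.8 to 39% did with single samples left out. Scaling by total counts without TMM, 2 members were lower, the second being *Dusp1* (adjusted p = 0.0452 from edgeR). With single samples left out, 1 to 3 members were higher and 1 to 2 were lower: *Dusp4* was lost and *Dusp1* gained without IL-1β replicate 3, and *Dusp16* was gained without vehicle replicate 3. Against a log2 fold change of 1, glmTreat gave every tested member an adjusted p of 1 and called 437 genes in all, where 751 passed the 2-fold threshold by edgeR's main test. The direction reversed for *Dusp9* alone, at -0.02 without IL-1β replicate 4, -0.06 without vehicle replicate 1 and -0.086 without vehicle replicate 3, within a range of -0.09 to 0.31, and the cause was not tested. Of 143 comparisons of a single member with an alternative, 133 kept direction and side of the threshold. Those with glmTreat reuse the fold changes of the main fit, so that direction could not differ. Members not called in the main fit could not be called by glmTreat either. The longest coding transcript as length moved 4 members by rank with IL-1β and 0 with vehicle.

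The replicate numbers did not pair the samples: deviations from the group means of same-numbered samples had r from -0.0699 to 0.0415 across genes, and 1 of 8 samples correlated best with its own number. With the replicate number as a block, 2 members were higher, 1 was lower and 0 were past 2-fold, as without it. Depth limits *Dusp2*, *Dusp4* and *Dusp9*, with at most 55 reads in any sample.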

Other observations

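Other phosphatases of the cell were described from fixed lists as well. Of 12 atypical dual-specificity phosphatase genes tested, which lack the MAP kinase binding domain of the MKPs, 4 were higher and 1 was lower after IL-1β at an adjusted p under 0.05 from edgeR, and 0 were past 2-fold. These 5 of 12 (41.7%) are close to the 40.2% of all genes tested at this threshold, 5.21% of which were past 2-fold. *Dusp3* (VHR), a small phosphatase of ERK and JNK, had 30.2 to 32.4 CPM after IL-1β against 16.1 to 17.6 CPM with vehicle, and its log2 fold change was 0.90, with SE 0.0581 and an edgeR adjusted p = 1.93e-13. *Dusp15* and *Dusp18* had log2 fold changes of 0.87 and 0.37, and *Dusp14* had -0.67. The value of *Dusp15* rests on 11 to 28 reads per sample. Of 5 tested genes for other phosphatases that act on MAP kinases, 1 was higher (*Ppp2ca*, 0.10) and 2 were lower (*Ppm1d*, -0.28, and *Ppp2cb*, -0.12), against 40.2% of all genes tested in either direction.

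Glucocorticoids are known inducers of *Dusp1*, and 6 other genes that they induce were listed for comparison. Of these, 2 were higher (*Sgk1*, with a log2 fold change of 0.32, and *Per1*, with 0.16). Another 2 were lower (*Zbtb16*, -0.72, and *Tsc22d3*, -0.25), and the median was 0.04. The same 40.2% of all genes tested is the background for these 4 of 6. The groups overlapped for *Per1* and *Zbtb16*, and *Zbtb16* rests on 17 to 64 reads per sample.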
